A study of Mus musculus with 20 samples.

Results

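Endothelial transcripts were followed in neural cultures grown from ESD3 (D3) mouse embryonic stem cells of strain 129s2/SvPas, which are kept on mouse embryo fibroblast feeders. The 9 genes were taken by symbol, Clec14a, Pecam1, Cdh5, Kdr, Flt1, Tek, Tie1, Emcn and Esam, from 37561 genes shared by all tables. All 9 were measured and 7 passed the level filter that 13608 genes passed. The filter was read from the rounding of the deposited values and aims at a log2 normalised count of at least 4 in the lower library of most tables. It is a rough estimate, and a table can be credited where the recovered count of its lower library is below that level. By this estimate Tie1 reached the level in 9 of 27 tables and Esam in 14 of 28, which fell just short of passing. Control cells carried a short hairpin RNA against luciferase and HPRT knockdown cells one against HPRT, each brought in by a virus that the sample labels call retroviral and the methods of the study lentiviral. Both lines had been selected with puromycin and the data hold 1 line of each kind. Spherical neural masses of each line were differentiated toward dopaminergic neurons and sampled daily from day 0 to day 4 and then every other day from day 6 to day 14, which gave 20 RNA-seq libraries, 1 per line and day. Per the methods of the study RNA was pooled within each time point, so a day had no replicate and errors below are over days. The days are successive collections of 1 line, and p-values measure the spread between these collections only.

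Endothelial cells line blood vessels and arise from mesoderm, a lineage separate from the neural one. Their growth is steered by VEGF acting on the receptor tyrosine kinases Kdr and Flt1, and vessel maturation by angiopoietins acting on Tek with its partner Tie1. Cdh5, Pecam1 and Esam are adhesion molecules of endothelial junctions, Emcn is a sialomucin of the endothelial surface, and Clec14a is an endothelial C-type lectin that binds the matrix protein Mmrn2. Several of these genes are not exclusive to endothelium. Pecam1 is also carried by mouse embryonic stem cells and blood platelets, and Kdr and Tek occur in other progenitors. In RNA of whole cultures fewer cells of a type and less RNA per cell cannot be told apart.

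The deposited values are log2 normalised counts centred within tables of 2 libraries, from which read counts were recovered for all 9 genes. A normalised read is a recovered count divided by a size factor, and the factors of the 20 libraries lay between 0.786 and 1.48; total read numbers were not used here. A ratio is the log2 value of the knockdown minus that of the control within the table of a day. Day 6, which the study left out of its pathway tests as discrepant, was left out of tests, and its values are given. The library labels were checked on Hprt, whose ratio was -4.00 ± 0.89 (SD, n = 9 days) and below 0 on 9 of 9 days (exact sign-flip permutation p = 0.00390625). Of the defining blood marker Ptprc no library held more than 1.22 normalised reads. The neural markers Sox1 and Pax6 stood at medians of 1041 and 306 normalised reads in the control libraries, and at 815 and 136 in the knockdown libraries.

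Per kilobase of exon, Emcn was the most abundant of the 9 transcripts and Tie1 the least abundant in the control line. The median over 10 control libraries was 62.8 normalised reads per kilobase for Emcn, 30.5 for Pecam1, 19.8 for Cdh5, 12.7 for Kdr and 10.1 for Esam. Clec14a followed at 7.23, Flt1 at 6.34, Tek at 5.71 and Tie1 at 0.951. The ranges over the libraries of neighbours in this order overlapped, except those of Tek and Tie1. In the knockdown line Emcn again came first with 30.4, and Clec14a came last with 1.39 normalised reads per kilobase. There every pair of neighbours overlapped. No exon of the 9 genes overlaps an exon of another gene in the GENCODE vM1 annotation.

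**Figure D1:**
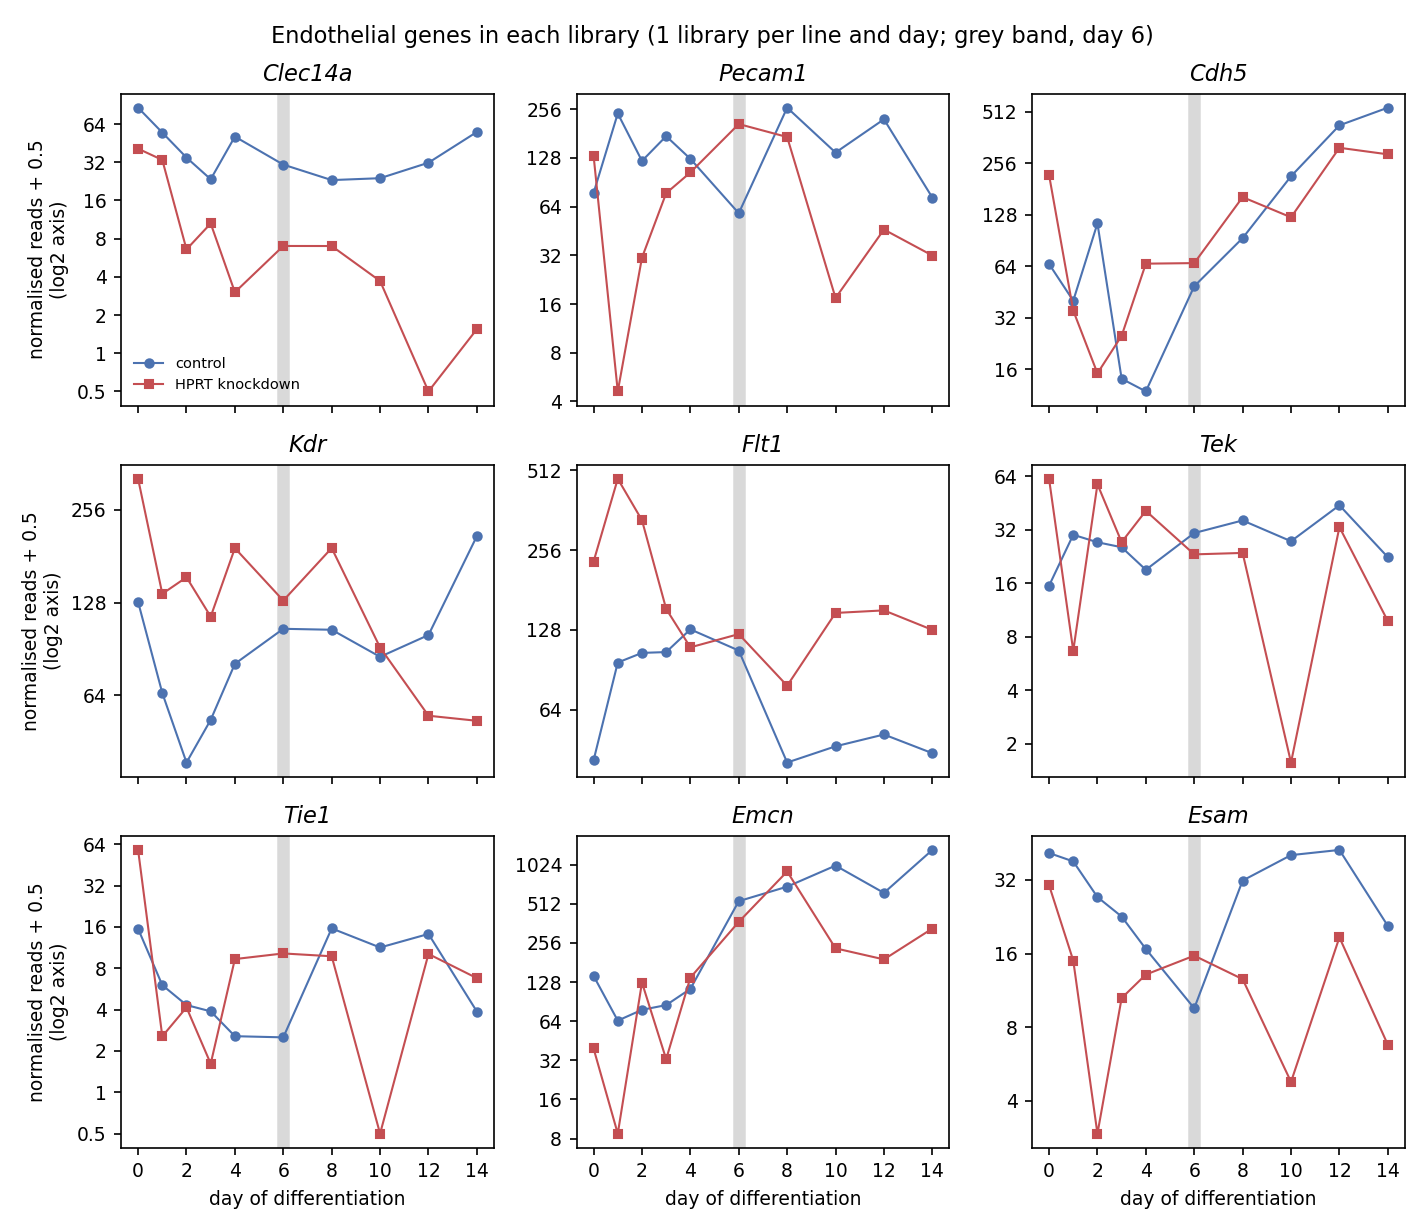
Normalised reads plus 0.5 of the 9 genes in each library against day of differentiation, on a log2 axis. Circles are the control line and squares the HPRT knockdown line, with 1 library each per day; Clec14a separates from day 2 on, and Cdh5 and Emcn climb after day 4 of the control line.

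The first comparison asked which genes differed between control and knockdown across the days. By limma with Benjamini-Hochberg adjustment over 13608 genes, 1 of the 7 genes tested was higher in the knockdown (Flt1) and 3 were lower (Clec14a, Pecam1 and Emcn). Over all genes tested 26.2% were called higher and 26.3% lower, 52.5% in all, so 4 of 7 is close to the background. Cdh5, Kdr and Tek did not pass. Of the 2 genes under the filter, Esam was lower on 9 of 9 days and Tie1 had no steady sign. The 7 mean ratios had a median of -0.50 beside 0.0056 over all genes tested.

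Clec14a (Gene ID 66864, NCBIM37 chromosome 12, 59365707 to 59370245, minus strand), a gene of a single exon of 4539 bases, had the largest mean difference of the 9 genes. In the control line it stood, from day 0 to day 14 in the order of sampling, at 85.8, 54.4, 34.4, 23.02, 50.5, 30.2, 22.7, 23.5, 31.3 and 55.0 normalised reads. In the knockdown line the values were 40.5, 32.9, 6.09, 10.0, 2.53, 6.51, 6.50, 3.21, 0 and 1.05, where the 0 of day 12 is a count below 1 read. On days 0 and 1 the knockdown values lay within the range of the control, and from day 2 on no knockdown value reached the lowest control value of 22.7. The log2 ratios of the 10 days were -1.12, -0.75, -2.43, -1.11, -4.27, -2.25, -1.77, -2.81, -5.00 and -5.65. Without day 6 the ratio averaged -2.77 ± 1.81 (SD, n = 9 days), which is 14.7% of the control level (limma adjusted p = 0.00215), with p = 0.00390625 in the exact sign-flip permutation test, which cannot go lower over 9 days. The ratio of day 12 rests on the floor that the authors set under low values, and without day 12 the mean was -2.49. From the counts, the ratio of the levels of the lines on day 14 was 0.0190 (95% counting interval 0.000476 to 0.110), on 1 read in the knockdown. Clec14a passed the filter through the control line, with 9 of 9 control tables and 1 of 9 knockdown tables at the level by the rounding estimate. It was credited with 5 of 10 same-day tables. Its knockdown values from day 2 on, at most 10.04 normalised reads, lay below the level. Fitted without a filter, its limma adjusted p was 0.00464. A log2 ratio below 0 on all 9 days was found for 15.2% of the genes tested.

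Flt1 (Gene ID 14254, NCBIM37 chromosome 5, 148373180 to 148537587, minus strand), a VEGF receptor that also exists in a soluble, ligand-trapping form, differed in the other direction. Its control values were 40.7, 95.9, 104, 105, 128, 106, 39.9, 46.1, 51.1 and 43.4 normalised reads. Its knockdown values were 231, 475, 331, 153, 109, 123, 78.3, 148, 151 and 128, highest on day 1. The ratios were 2.47, 2.28, 1.73, 0.63, -0.18, 0.17, 1.01, 1.74, 1.61 and 1.62, below 0 on day 4 and above 0 on the other 8 days tested. On average the ratio was 1.44 ± 0.83 (SD, n = 9 days), 2.70-fold higher in the knockdown (limma adjusted p = 0.00118, exact sign-flip permutation p = 0.0078125). The values of the lines overlapped over the course, and the lines lay closest together on days 4 and 6.

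Kdr (Gene ID 16542, NCBIM37 chromosome 5, 76328852 to 76374483, minus strand), the main signalling receptor for VEGF, was higher in the knockdown early and lower late. The control values were 128, 64.5, 38.2, 52.7, 80.4, 105, 104, 84.8, 99.9 and 209.8 normalised reads and the highest fell on day 14. The knockdown values were 322, 136, 154, 115, 192, 129, 192, 90.9, 54.4 and 52.4 and the highest fell on day 0. Of its 20 recovered counts 18 lay on parts of 1/49 of a read, and those of days 0 and 8 of the knockdown did not. Ratios were 1.29, 1.05, 2.08, 1.21, 1.304, 0.27, 0.92, 0.16, -0.83 and -1.93, above 0 up to day 10 and below 0 on days 12 and 14. The mean of 0.58 ± 1.25 (SD, n = 9 days) did not pass (limma adjusted p = 0.215, exact sign-flip permutation p = 0.191406), and without day 14 it was 0.90 with a limma adjusted p of 0.025.

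**Figure D2:**
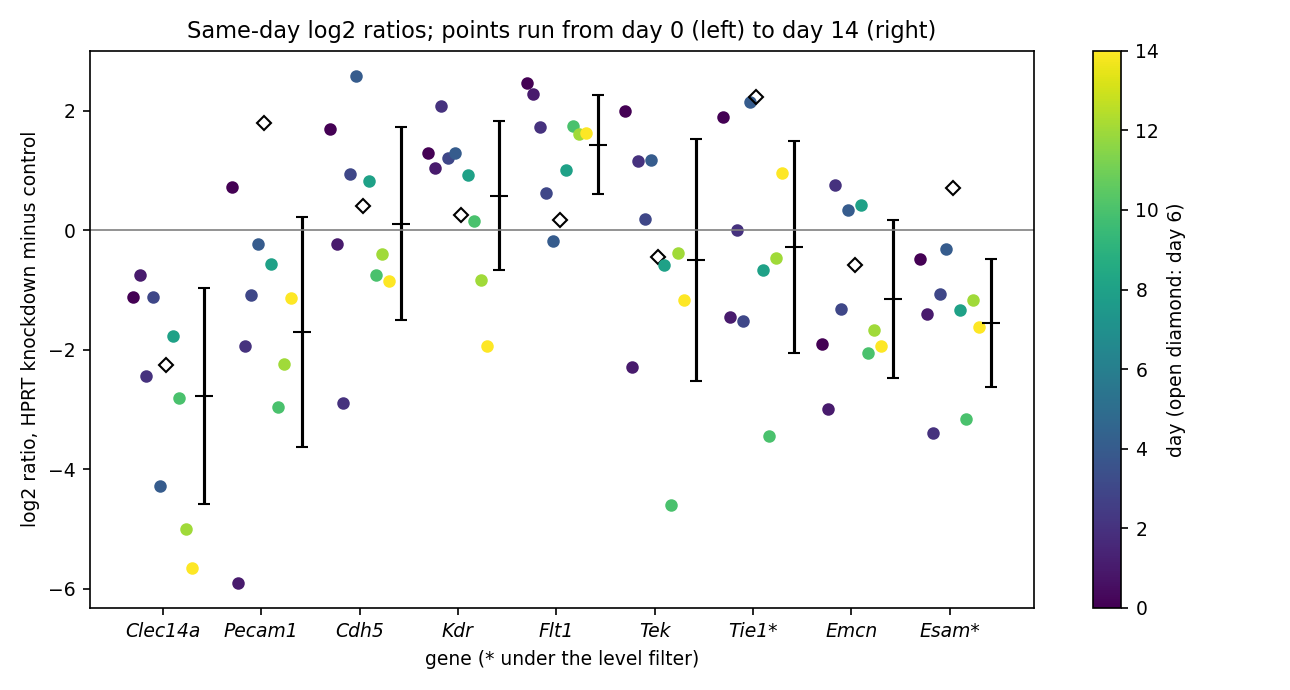
Log2 ratio of the HPRT knockdown over the control for each gene (horizontal axis), with 1 point per day from day 0 at the left to day 14 at the right, coloured by day; the open diamond is day 6. The bar at the right of each gene is the mean ± SD of the 9 days without day 6; all points of Clec14a lie below 0, and those of Kdr pass from above to below 0.

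Pecam1 (Gene ID 18613, NCBIM37 chromosome 11, 106515531 to 106611942, minus strand) had its highest and lowest knockdown values on days 6 and 1. The control values were 77.2, 240.3, 122, 174, 126, 57.7, 261, 138, 221 and 72.3 normalised reads. The knockdown values were 132, 4.11, 30.4, 77.0, 104, 207, 172, 16.9, 45.7 and 31.4, so the low points fell on days 1 and 10. The ratios of 0.73, -5.89, -1.94, -1.09, -0.23, 1.7996, -0.57, -2.96, -2.23 and -1.13 were below 0 on 8 of the 9 days tested, and above 0 on day 0 and on day 6, which the test left out. On average the ratio was -1.70 ± 1.92 (SD, n = 9 days) (limma adjusted p = 0.0306, exact sign-flip permutation p = 0.015625). The call was lost with day 6 kept (limma adjusted p = 0.0883) and without day 2, 10 or 12, and without a filter it was 0.0501.

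Among all genes past the filter, the 3 with the joined profile most like that of Pecam1 over the 20 libraries were Utf1 (r = 0.970), a chromatin factor of undifferentiated embryonic stem cells, L1td1 (r = 0.955), an RNA-binding protein of pluripotent cells, and Trim6 (r = 0.952). Within the 10 control libraries r was 0.945, 0.871 and 0.786, and within the 10 knockdown libraries it was 0.977, 0.978 and 0.970. These are descriptions of 20 points that share libraries and their normalization. With the 15 of 16 listed pluripotency genes that were measured, Pecam1 had a median r of 0.904, and 13 of them were above 0.5; the medians of the other 6 genes past the filter lay between -0.75 for Flt1 and 0.53 for Tek. In the line difference 14 of these 15 genes were called lower and 1 higher, beside 26.3% and 26.2% of all genes tested. Their median mean ratio was -2.63, beside 0.0056 over all genes tested. Over the 9 pluripotency genes whose counts were recovered, the summed level ran from 2402 to 8193 normalised reads in the control libraries and from 593 to 3964 in the knockdown libraries. The mean ratio was -2.63 ± 2.14 for Pou5f1 and -2.84 ± 1.79 for Nanog, both core factors of pluripotency, with limma adjusted p-values of 0.00665 and 0.00181. Their part in the Pecam1 difference was not tested.

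**Figure D3:**
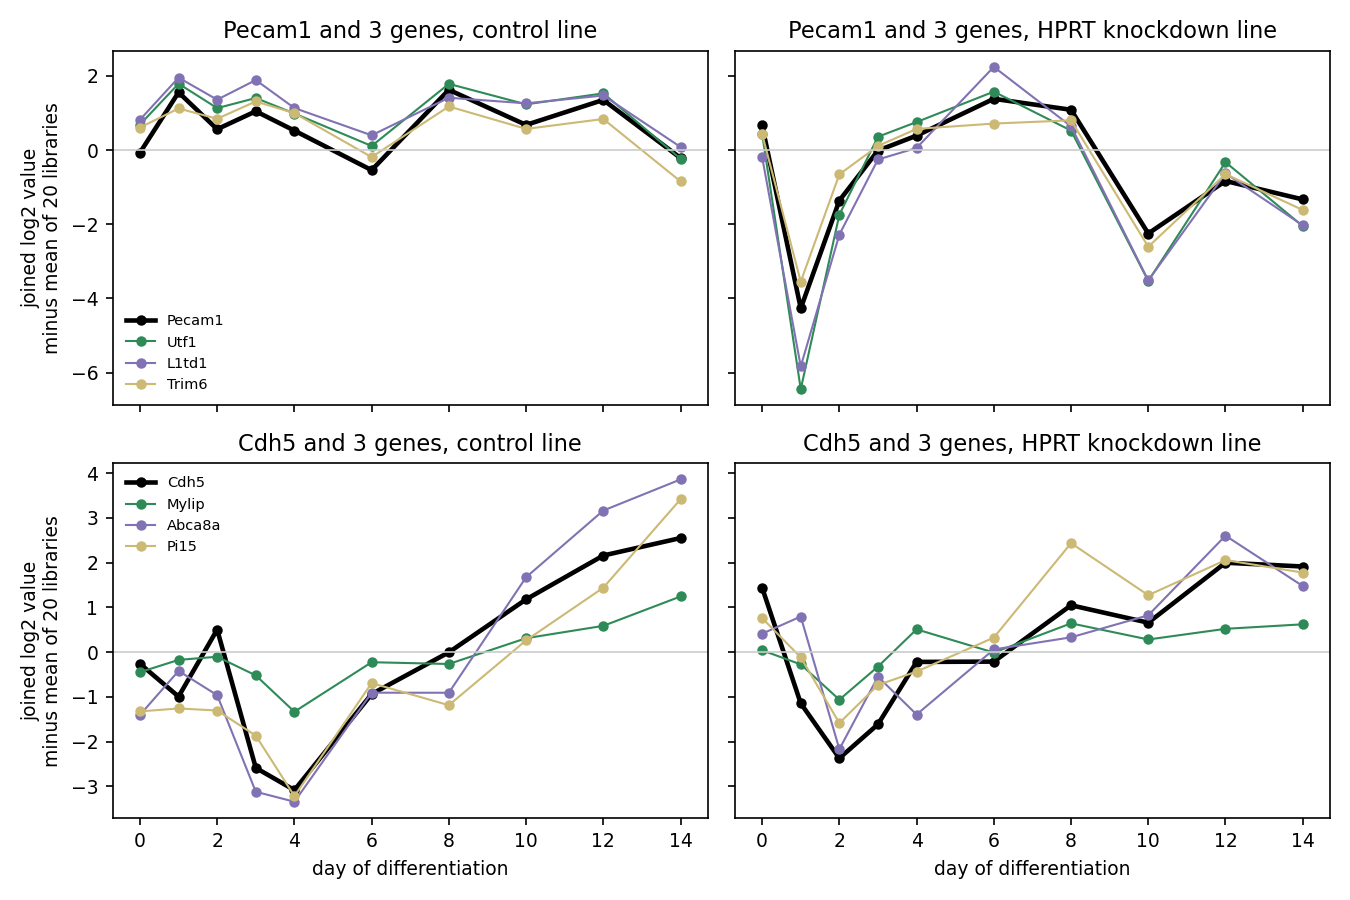
Joined log2 value minus its mean over the 20 libraries, against day of differentiation, for Pecam1 (upper panels) and Cdh5 (lower panels) in black and the 3 genes with the highest Pearson r to each in colour. Left panels are the control line and right panels the HPRT knockdown line, with 1 point per library; Pecam1 and its 3 neighbours share low points on days 1 and 10 of the knockdown line.

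Emcn (Gene ID 59308, NCBIM37 chromosome 3, 137004031 to 137095149, plus strand) was lower in the knockdown on 6 of the 9 days tested. The control values were 142, 64.2, 77.8, 84.6, 113, 537, 694, 1008, 621 and 1331 normalised reads. The knockdown values were 39.0, 8.23, 127, 32.2, 138, 372, 908, 232, 191 and 330.1, of which the highest, on day 8, exceeded the control of that day. Ratios were -1.91, -2.99, 0.77, -1.31, 0.34, -0.57, 0.42, -2.06, -1.66 and -1.94. The mean of -1.15 ± 1.33 (SD, n = 9 days) passed limma (adjusted p = 0.0338) and had an exact sign-flip permutation p of 0.0351562, but it no longer passed limma without day 0, 1, 3, 10, 12 or 14, or without a filter (adjusted p between 0.0543 and 0.0755). In a sign-flip test of every gene its Benjamini-Hochberg adjusted p was 0.0661, and without the day as a block its limma adjusted p was 0.346.

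Cdh5 (Gene ID 12562, NCBIM37 chromosome 8, 106625525 to 106668402, plus strand), the cadherin of endothelial junctions, did not differ in a steady direction between the lines. Its control values were 65.4, 39.6, 113, 13.5, 11.3, 48.3, 92.8, 214, 426 and 540.1 normalised reads. Its knockdown values were 218, 34.7, 14.6, 24.5, 65.7, 66.2, 162, 123, 315 and 288. The control was lowest on day 4 and the knockdown on day 2, and both were highest on days 12 and 14. The ratios were 1.70, -0.22, -2.89, 0.94, 2.58, 0.41, 0.83, -0.74, -0.39 and -0.84, above 0 on 4 and below 0 on 5 of the 9 days tested, with a mean of 0.11 ± 1.61 (SD, n = 9 days) and a limma 95% interval from -0.97 to 1.19 (adjusted p = 0.863).

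Esam (Gene ID 69524, NCBIM37 chromosome 9, 37335663 to 37345904, plus strand), an immunoglobulin-like adhesion molecule of endothelial junctions and platelets, was lower in the knockdown on all 9 days tested, which held for 11.6% of the 19041 genes with reads. The control values were 40.7, 37.6, 26.7, 22.2, 16.2, 9.06, 31.3, 39.9, 41.9 and 20.3 normalised reads. The knockdown values were 30.0, 14.5, 2.43, 10.0, 12.6, 15.2, 12.1, 4.28, 18.1 and 6.28. The ratios of -0.48, -1.40, -3.39, -1.06, -0.31, 0.71, -1.34, -3.16, -1.17 and -1.62 had a mean of -1.55 ± 1.07 (SD, n = 9 days) and an exact sign-flip permutation p of 0.00390625. Day 6 was the exception, with more reads in the knockdown. Fitted without a filter, Esam had a limma adjusted p of 0.00614.

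The angiopoietin receptors were, per kilobase, the lowest of the 9 transcripts in the control line. Tek (Gene ID 21687, NCBIM37 chromosome 4, 94405980 to 94541667, plus strand) stood at 15.0, 29.5, 26.7, 25.0, 18.6, 30.2, 35.6, 27.1, 43.5 and 21.9 normalised reads in the control and at 61.4, 6.17, 57.2, 26.8, 40.4, 22.8, 23.2, 1.07, 32.6 and 9.32 in the knockdown. Its ratios were 2.00, -2.28, 1.16, 0.18, 1.17, -0.45, -0.58, -4.60, -0.37 and -1.17. The lowest, on day 10, rests on 1 read in the knockdown library, and the mean of -0.50 ± 2.02 (SD, n = 9 days) did not pass (limma adjusted p = 0.511). Tie1 (Gene ID 21846, NCBIM37 chromosome 4, 118143796 to 118162666, minus strand), an orphan receptor that pairs with Tek, stood at 15.0, 5.53, 3.82, 3.39, 2.06, 2.01, 15.1, 10.8, 13.7 and 3.38 normalised reads in the control. In the knockdown it stood at 57.7, 2.06, 3.65, 1.12, 8.84, 9.76, 9.29, 0, 9.67 and 6.28, the 0 of day 10 being a count below 1 read. Its ratios were 1.91, -1.45, 0, -1.51, 2.15, 2.24, -0.67, -3.43, -0.46 and 0.96, with a mean of -0.28 ± 1.78 (SD, n = 9 days) and an exact sign-flip permutation p of 0.648438. Outside day 0 of the knockdown line, every Tie1 value was at most 15.1 normalised reads, and on 7 of the 9 days tested the 95% counting interval of the ratio of the lines included 1, so a difference was not detectable there at this depth.

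The next comparison asked how the genes changed with time in each line. In the control line 2 of 7 genes rose and none fell, beside 19.7% of all genes tested rising and 23.9% falling, 43.6% in all. Emcn had a slope of 0.29 log2 units per day (limma 95% interval 0.19 to 0.39, adjusted p = 0.00158) and Cdh5 one of 0.27 (0.066 to 0.47, adjusted p = 0.0373). From day 6 to day 14 of this line Cdh5 was 11.2-fold higher, with a 95% counting interval from 8.33 to 15.3, and Emcn 2.48-fold, from 2.25 to 2.74. In the knockdown line the same ratio was 4.35 for Cdh5 (3.29 to 5.84) and 0.888 for Emcn (0.758 to 1.04). These ratios start from day 6, which the fits left out. Such intervals are exact binomial ones for 2 counts and cover counting error only. The slope of Cdh5 was called in 8 of 15 alternatives, and not without day 1, 3, 10, 12 or 14, without a filter (limma adjusted p = 0.0591) or on log2(day + 1) (0.193). That of Emcn was called in 16 of 16. Without day 0, Kdr (slope 0.11) and Flt1 (slope -0.12) were called as well.

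In the knockdown line none of the 7 genes rose and 2 fell, beside 7.60% rising and 5.53% falling among all genes, 13.1% in all. Clec14a had a slope of -0.31 log2 units per day (-0.46 to -0.17, limma adjusted p = 0.0202) and Kdr one of -0.14 (-0.21 to -0.062, adjusted p = 0.0326). The slopes of Emcn (0.28) and Cdh5 (0.21) did not pass (limma adjusted p = 0.0759 and 0.103); without day 0 the slope of Cdh5 was 0.31 and passed. Without day 12 or day 14 neither Clec14a nor Kdr was called, and Kdr was also lost without day 0, 2 or 10 and on log2(day + 1).

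The difference between the trends was tested on the ratio itself. Its slope was below 0 and passed for Kdr at -0.22 per day (limma adjusted p = 0.0121) and for Clec14a at -0.28 per day (adjusted p = 0.0407), 2 of 7 genes beside 6.61% of all genes with a falling and 7.43% with a rising ratio. Kdr kept its call whichever day was left out and lost it on log2(day + 1). Clec14a lost it there, without a filter and without day 0, 1, 2, 3, 10, 12 or 14. For the other 5 genes the slopes lay between -0.19 for Tek and 0.0052 for Pecam1 and did not pass. For Cdh5 the interval ran from -0.31 to 0.16 and for Emcn from -0.22 to 0.16.

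**Figure D4:**
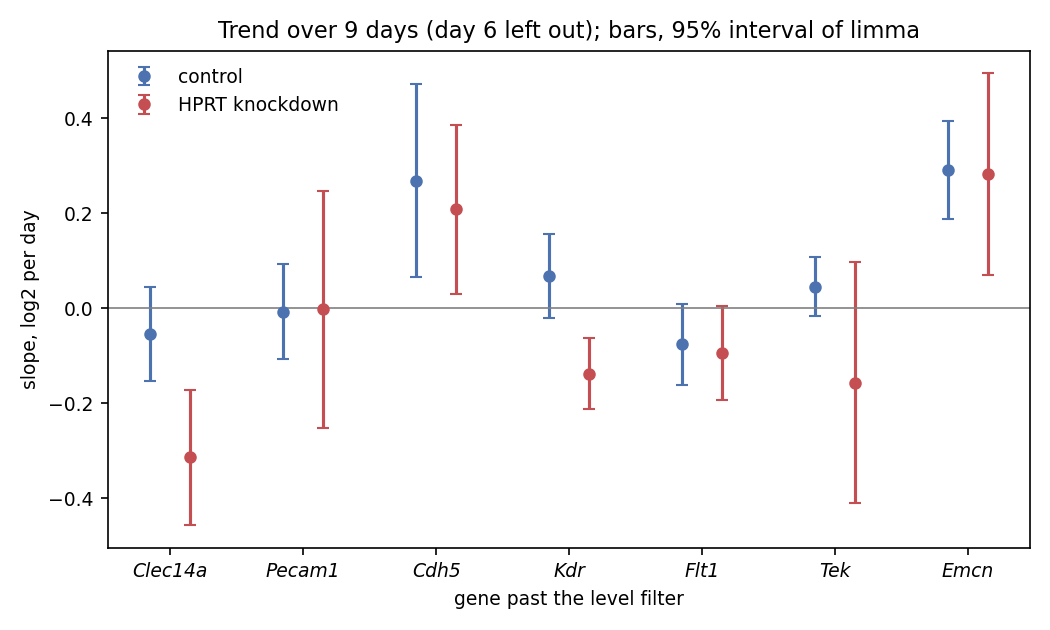
Slope of the joined log2 value on day, in log2 units per day, for the 7 genes past the level filter, control line and HPRT knockdown line side by side, with the 95% interval of limma over 9 days. The slopes of Kdr stand on opposite sides of 0 (0.069 and -0.14).

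Day 0 of the knockdown line held the highest value of that line for Kdr, Tek, Tie1, Esam and Clec14a. On day 1, 7 of the 9 genes stood at least 2-fold lower, as did 14.0% of 7551 genes past the level filter with recovered counts. Of these 7 genes, Tie1 and Esam are under that filter, so the sets are not alike. The contrast was picked after its values were seen, and with 1 library a day no test applies. Pecam1 went from 132 to 4.11 normalised reads, a ratio of 0.0312 (95% counting interval 0.00841 to 0.0813). Tie1 went from 57.7 to 2.06, a ratio of 0.0357 (0.00424 to 0.133). The ratio was 0.100 for Tek, 0.159 for Cdh5, 0.211 for Emcn, 0.422 for Kdr and 0.483 for Esam. Flt1 went from 231 to 475 and was at least 2-fold higher, as were 6.87% of such genes past the filter. In the control line the same step held 2 genes at least 2-fold lower, Emcn and Tie1, where 4.50% of genes past the filter were. It held 2 genes at least 2-fold higher, Pecam1 and Flt1, where 8.08% were.

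The 9 genes did not move as a block. Over the 20 libraries, the log2 normalised reads of the 36 pairs had Pearson r between -0.727 and 0.647 with a median of 0.104, and 7 pairs were above 0.5. The highest was that of the angiopoietin receptor pair Tek and Tie1 (0.647), which was 0.239 within the control line and 0.739 within the knockdown line. Tie1 and Esam reached 0.846 in the control and 0.654 in the knockdown. The lowest was that of Flt1 and Emcn (-0.727), below 0 in both lines. The VEGF receptors Kdr and Flt1 had r = 0.0921. These values describe points that share days, libraries and normalization.

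The profile of Cdh5 was most like those of Mylip (r = 0.891), a ubiquitin ligase of the low-density lipoprotein receptor, Abca8a (0.876), a lipid transporter, and Pi15 (0.866), a secreted peptidase inhibitor. With the 10 genes of the fibroblast list Cdh5 had a median r of 0.707, and 8 of them were above 0.5, while with the 34 other endothelial genes past the filter its median r was 0.0554. The fibroblast list had 1 gene called higher and 3 called lower of 10 in the line difference, where 52.5% of all genes were called. In the control line 6 of the 10 rose, beside 19.7% of all genes. Col1a1, a collagen of fibroblasts, had a mean ratio of 0.18 ± 1.08 that did not pass (limma adjusted p = 0.671). The part of the fibroblast genes in the rise of Cdh5 was not tested. Clec14a was most like Snord64 (r = 0.875), the targeted gene Hprt (0.868) and Zfp383 (0.865). Within the 10 control libraries these values were -0.609, 0.491 and -0.00215, and within the 10 knockdown libraries 0.877, 0.888 and 0.824. For Snord64 and Zfp383 the joined values and the same-day ratios disagreed. Snord64 had a mean ratio of -0.91 ± 0.93 (SD, n = 9 days), below 0 on 7 days. Its joined values on day 14 were 0.630 in the control and -5.58 in the knockdown. The mean ratio of Zfp383 was 0.057 ± 0.36 (SD, n = 9 days), below 0 on 4 days. Its joined values on day 4 were 0.564 in the control and -1.26 in the knockdown. The r of Zfp383 over both lines therefore does not describe a line difference seen in its ratios. That of Snord64 rests on a joined line difference larger than its ratios show. The cause of the mismatch was not tested.

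Other endothelial genes were described by a list of 50, of which 34 passed the filter, 6 called higher and 12 lower in the knockdown, with a median mean ratio of -0.46 beside 0.0056 over all genes tested and the same background of 52.5%. The largest drops were those of Tal1, a transcription factor of blood and endothelial progenitors, at -2.82 ± 1.27 (limma adjusted p = 0.000322, lower on 9 of 9 days) and Sox17, a factor of endoderm and arterial endothelium, at -1.89 ± 2.40 (0.0481, lower on 7 of 9 days). Tal1 stood between 15.8 and 254 normalised reads in the control and between 4.34 and 42.7 in the knockdown. The largest gains were those of Cd93, a C-type lectin of the same family as Clec14a, at 2.06 ± 1.24 (0.00141, higher on 9 of 9 days) and S1pr1, a receptor for sphingosine 1-phosphate, at 1.41 ± 0.70 (0.000558, higher on 9 of 9 days). Cd93 stood between 5.06 and 51.5 normalised reads in the control and between 25.4 and 435 in the knockdown, against the direction of Clec14a.

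**Figure D5:**
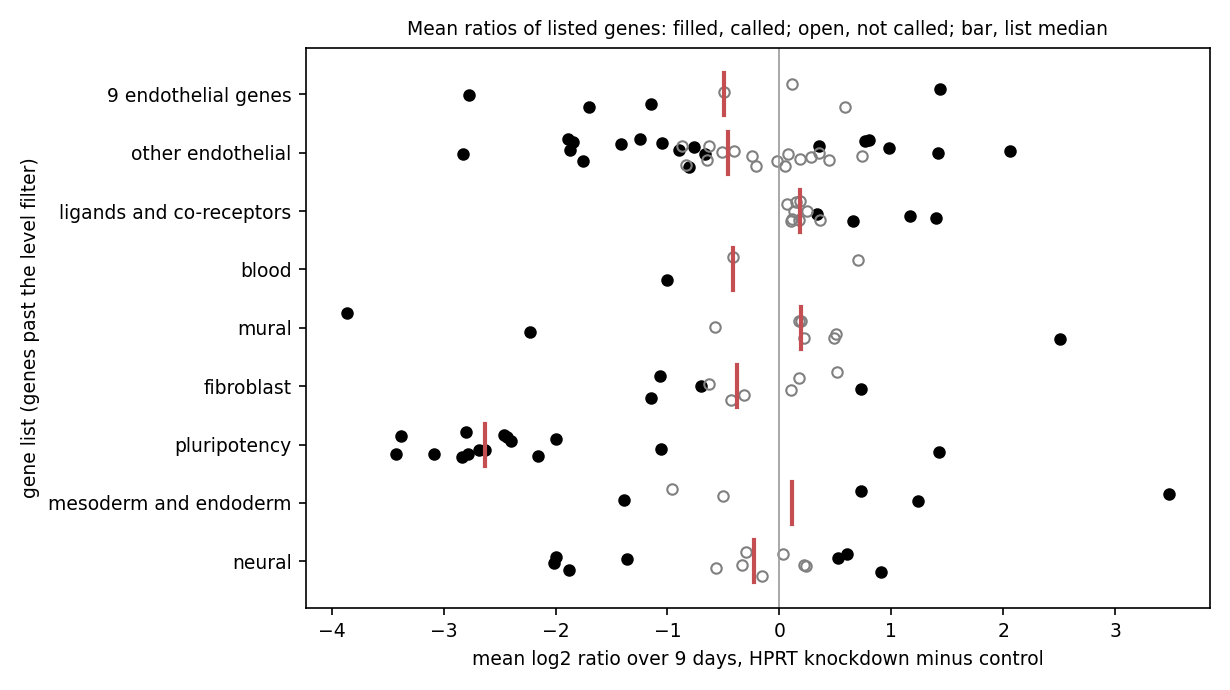
Mean log2 ratio over 9 days, HPRT knockdown minus control, of each gene past the level filter, by gene list. Filled points were called by limma over all genes, open points were not, and the red bar is the list median; the 7 of the 9 endothelial genes that passed spread on both sides of 0, while 14 of 15 pluripotency genes lie below it.

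Ligands and co-receptors of the 9 genes were called higher about as often as all genes. Of 14 listed genes 13 passed the filter, 4 were called higher and none lower (26.2% and 26.3% of all genes), with a median mean ratio of 0.19. Vegfa, the main ligand of Kdr and Flt1, had a mean ratio of 0.66 ± 0.64 (limma adjusted p = 0.0178) and Vegfb, a ligand of Flt1, 0.33 ± 0.24 (0.00873). Angpt2, a context-dependent antagonist of Tek, had 1.40 ± 1.21 (0.0093) and stood between 12.2 and 139 normalised reads in the control and between 36.7 and 452 in the knockdown. Plxnd1, a semaphorin receptor of endothelium, had 1.16 ± 0.15 (7.84e-06). Not called were Vegfc (0.068 ± 0.73), Figf (0.10 ± 0.90) and Pgf (0.25 ± 1.19), further VEGF family ligands, Angpt1 (0.13 ± 0.32), the activating ligand of Tek, and the co-receptors Nrp1 (0.19 ± 0.96) and Nrp2 (0.36 ± 0.75). The ratio of Nrp1 had a slope of -0.17 per day (limma adjusted p = 0.00956), and that of Epas1, a hypoxia-inducible factor picked after its values were seen, one of -0.11 (0.0357). Mmrn2, the partner of Clec14a, was lower at -1.84 ± 1.73 (limma adjusted p = 0.0137) on 8 of 9 days, and on day 6 its ratio was 1.81.

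Markers of cells found beside endothelium were read in the same libraries. The counts of genes called below stand beside 26.2% of all genes tested called higher and 26.3% lower, 52.5% in all. Of 16 blood genes 15 were measured and 3 passed the filter. Kit, a receptor of blood progenitors that stem cells carry too, was called lower at -1.004 ± 1.06 (limma adjusted p = 0.0232), and Runx1 and Itga2b were not called. Runx1 had a median of 303 normalised reads in the control and 181 in the knockdown, and Itga2b 23.3 and 30.2. Gata1 held at most 6.19 and Csf1r at most 9.15 normalised reads in any library. Of 10 mural genes 9 passed, 1 higher and 2 lower. Cspg4, a proteoglycan of pericytes and oligodendrocyte progenitors, was higher at 2.51 ± 1.52 (0.00143), and the muscle filament gene Des was lower at -3.86 ± 3.05 (0.00575), as was the channel regulator Abcc9 at -2.23 ± 1.73 (0.00524). Pdgfrb, a receptor of mural cells, was at 0.49 ± 0.74 and not called (limma adjusted p = 0.0921). Of the fibroblast list the matrix protease Fap (-1.14 ± 1.03) and the proteoglycan Lum (-1.07 ± 1.15) were lower and the growth factor receptor Pdgfra (0.73 ± 0.69) was higher. Of 6 mesoderm and endoderm genes past the filter 3 were higher and 1 lower, among them the mesoderm factor T at 3.48 ± 1.13 (7.28e-05), Foxa2 at 1.24 ± 0.93 (0.0048) and Eomes at -1.39 ± 1.01 (0.00392). Of 14 neural genes 3 were higher and 4 lower. Higher were the filament gene Vim (0.91 ± 0.29), the adhesion molecule Ncam1 (0.60 ± 0.32) and the progenitor factor Sox2 (0.52 ± 0.57). Lower were the progenitor factor Pax6 (-1.36 ± 0.74) and the neuronal cytoskeletal genes Stmn2 (-2.01 ± 1.00), Dcx (-1.99 ± 1.24) and Tubb3 (-1.88 ± 0.98). In the pluripotency list Zfp42 (-3.43 ± 2.67) and Tdgf1 (-3.38 ± 2.40) had the largest drops and Tbx3 (1.43 ± 0.91) was the gene that was higher.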

How the data were processed

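Mouse cultures were read by RNA-seq (TruSeq, 50 cycles). The authors mapped reads to mm9 with CASAVA 1.8.2, counted them per gene in Avadis NGS, partial reads included, and normalised them with DESeq. They deposited log2 normalised counts in 28 tables of 2 libraries, centred on the mean of both, with normalised counts of 1 or less set to 0 on the log2 scale. The 20 libraries filled 4 lanes, 5 in each; which library ran in which lane is not given in the sources used here, and lanes were not examined. The deposited tables hold no columns of the authors' own tests.

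Ratios were differences of the columns of a table, and joined values were sums of consecutive-day steps. Counts, most of them whole or on parts of 1/49 of a read (within 0.1 of a part), were recovered by search for values that give all of 27 tables (within 1e-05 log2 units); the control day 3 to day 4 table differed from the others and was left out of that step only. This gave 12185 of 19041 genes with reads. On simulated data for the line difference (7556 genes, 200 changed), limma called 77% of 2-fold and 100% of 4-fold changes, and of 800 genes decoded 99.5% were recovered, 99.75% of those rightly. The simulation gave all genes 1 fixed spread between days. The ratios of the 7 genes tested had SDs from 0.83 to 2.02, so the shares called do not give the power for them. It was built from genes whose counts had been recovered, with parts of 1/49 of a read, so its recovery rate covers such genes only. The deposited tables hold no total reads per library, so depth is given as recovered counts, and counting intervals (95%, exact binomial) cover counting error only.

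Tests were limma 3.58.1 (R 4.3.3) over 13608 genes with Benjamini-Hochberg adjustment at 0.05: the mean ratio, the slope of each line on day, and the slope of the ratio, all without day 6. Two-sided exact sign-flip tests over 9 days were run per gene. Ratios were paired by day because both lines were collected on the same days: same-day deviations from the line means correlated at -0.0321 on day 0 and between 0.131 and 0.412 on the other 8 days. Coordinates and exon lengths are from GENCODE vM1 on NCBIM37, the build called mm9. Python 3.11.15, numpy 2.4.6, pandas 2.3.3, scipy 1.17.1, numba 0.67.0 and matplotlib 3.10.9 were used.

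The genes and lists were chosen with earlier results of these data known. Named were all 9 genes, from each list the 2 called genes with the largest mean ratio in each direction, the ligands and co-receptors, defining markers, and the 3 genes with the highest Pearson r to Cdh5, Clec14a and Pecam1. Alternatives were another filter or none, day 6 kept, recentred tables, steps through the other line, log2(day + 1), no pairing, a sign-flip test per gene, each day left out, and recovered counts with a pseudocount of 0.5; for the trends and the exact tests this last was chosen after seeing the data.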

Additional observations from a re-analysis of the deposited data

Results flagged for a closer look

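Each gene gave 3 sets of values over the 10 days, its levels in either line and its ratios. In 5 of the 27 sets, all of levels, 1 value stood apart from the others by Dixon's criterion. For independent values of a normal distribution chance gives about 1 in 20. The levels were not log-transformed and come from a time course, so that rate need not hold for them. Clec14a on day 0 of the control line held 85.8 normalised reads. Kdr held 209.8 on day 14 of the control line and 322 on day 0 of the knockdown line. Tie1 held 57.7 on day 0 of the knockdown line, and Emcn held 908 on day 8 of it. Between the lines, the test of the slope of the log2 ratio on day passed for Clec14a at -0.28 per day (limma adjusted p = 0.0407) and for Kdr at -0.22 per day (limma adjusted p = 0.0121).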

How the results depend on the processing

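Clec14a and Flt1 were called in all 15 alternatives of the line difference run for them, Pecam1 in 10 of 15 and Emcn in 7 of 16. Of the 7 genes, 4 were called, against 1 under the stricter filter, where only Emcn was tested, and 2 to 4 with a day left out (2, Clec14a and Flt1, without day 10 or day 12). Without the replicate block 3 were called, with Emcn lost, and 5829 genes in all; the same-day pairing changed no other call of the 7 genes. The control trend had 2 called, against 1 under the stricter filter, with no filter or on log2(day + 1), and 1 to 4 with a day left out (4 without day 0). The knockdown trend had 2, against 0 under the stricter filter, 1 on log2(day + 1) and 0 to 2 with a day left out (0 without day 12 or day 14). The difference in trend had 2, against 0 under the stricter filter, 1 with no filter, 0 on log2(day + 1) and 1 to 2 with a day left out. Esam kept its exact test under all 12 alternatives run for it.

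Signs turned only for values that did not pass. On log2(day + 1) the slope of Pecam1 was 0.059 in the control, 0.030 in the knockdown and -0.031 in the ratio, and that of Emcn in the ratio 0.082. From recovered counts the ratio slope of Pecam1 was -0.0014. With a day left out, Pecam1 ranged over -0.043 to 0.055 in the control, -0.11 to 0.059 in the knockdown and -0.12 to 0.10 in the ratio. The ratio slopes of Emcn ranged over -0.092 to 0.012 and those of Flt1 over -0.035 to 0.023. The mean ratio ranged over -0.20 to 0.48 for Cdh5, -0.81 to 0.014 for Tek and -0.58 to 0.12 for Tie1. The cause was not tested.

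Over all genes, 7141 were called in the line difference and 3837 of 7556 from recovered counts. The control trend called 5933, 3929 on log2(day + 1) and 2949 from recovered counts. The knockdown trend called 1786, 127 and 846 in the same order, and 171 to 2959 with a day left out (2959 without day 0, 725 without day 2, 849 without day 10, 464 without day 12 and 171 without day 14). The difference in trend called 1911, 1066 with day 6 kept, 1012 from recovered counts and 605 to 1657 with a day left out (1264 without day 0, 1069 without day 10, 605 without day 12 and 870 without day 14). Depth limits Tie1, the knockdown values of Clec14a from day 2 on and those of Esam most, which rest on few reads.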
